A study of Drosophila melanogaster with 4 samples.

Results

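Of the 10 highest-scoring Eip78C peaks of white prepupae, 7 lay at CG14100, Ugalt, CG11050, larp, PNPase, CenG1A and CG7601, which are 7 of the 13968 protein-coding genes annotated on the main chromosome arms of the fly genome. These genes were chosen by the authors' signal score in the joint list of 8282 peaks, called the optimal set here, and each is the gene with the nearest annotated start to its peak. The score is therefore given as a description, and nothing about it was tested. The remaining 3 of the 10 peaks had their nearest starts at cbt, with the summit in ush, at CG43218, with the summit in Eip78C, and at Lk6. Their scores were 4276, 3654 and 3461. At the boundary, CG7601 stood just inside at rank 10 with a score of 3232, and Chro stood just outside at rank 11 with 3125.

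Eip78C is a nuclear receptor related to the vertebrate Rev-erb proteins. Its gene responds to the steroid hormone ecdysone, whose pulse at the end of larval life starts metamorphosis. Receptors of the Rev-erb type bind DNA at a short half-site and are best known in vertebrates as repressors of transcription. A ChIP-seq peak marks DNA recovered with the tagged protein, and its summit is the position where the recovered fragments pile highest.

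The data came from 4 biological replicates of 1 group. All were whole Drosophila melanogaster of the strain Eip78C-GFP at the white prepupa stage, with males and females pooled and the age labelled as unknown. The transgenic line carried Eip78C with GFP at its C-terminus, and chromatin was recovered with an antibody against GFP. All replicates share 1 line and come from whole animals, so no tissue can be assigned to a peak. The authors called each replicate list against a control alignment, which was not analysed here. The lists hold no read counts, and the depth behind each peak is unknown. Each replicate list held 30000 peaks, and so did the list called on the 4 replicates pooled.

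The genes fall into known roles only in part. Ugalt encodes the transporter that carries UDP-galactose into the Golgi. The larp product is a La-related RNA-binding protein that acts on messenger RNAs. PNPase encodes polynucleotide phosphorylase, an exonuclease that degrades mitochondrial RNA. CenG1A encodes a centaurin, a GTPase-activating protein for Arf proteins of membrane traffic. CG7601 is listed by RefSeq with the synonym DHRS7B, a short-chain dehydrogenase or reductase, while CG14100 and CG11050 are listed as uncharacterized proteins.

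The DNA under the 7 summits is shown first, because the comparison of these sequences and their distances to gene starts follow from it. Each is the forward strand of the dm6 assembly (RefSeq Release 6) within 200 bp centred on the optimal summit, read 5′ to 3′, without the bases annotated as UTR. For PNPase, whose window is cut by UTR bases, 1 stretch of 48 bases is shown, which ends 2 bp before the summit. The remaining non-UTR bases of that window are left out. Capitals mark runs of at least 10 bases that occur in the window of another of the 7 genes on either strand, or that recur on the opposite strand of the same window.

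CG14100, chr3L:19590525-19590709: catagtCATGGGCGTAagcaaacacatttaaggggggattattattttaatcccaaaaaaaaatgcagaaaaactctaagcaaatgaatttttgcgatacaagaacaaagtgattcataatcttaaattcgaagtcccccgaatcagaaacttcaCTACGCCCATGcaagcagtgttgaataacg
Ugalt, chrX:2703853-2703990: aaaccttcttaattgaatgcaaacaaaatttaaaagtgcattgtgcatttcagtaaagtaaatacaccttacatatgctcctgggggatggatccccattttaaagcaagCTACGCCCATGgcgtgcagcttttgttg
CG11050, chr2L:6612607-6612806: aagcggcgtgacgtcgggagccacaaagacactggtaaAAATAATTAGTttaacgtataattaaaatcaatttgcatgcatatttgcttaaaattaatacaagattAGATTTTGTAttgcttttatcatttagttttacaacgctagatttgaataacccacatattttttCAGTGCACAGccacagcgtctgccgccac
larp, chr3R:28326494-28326693: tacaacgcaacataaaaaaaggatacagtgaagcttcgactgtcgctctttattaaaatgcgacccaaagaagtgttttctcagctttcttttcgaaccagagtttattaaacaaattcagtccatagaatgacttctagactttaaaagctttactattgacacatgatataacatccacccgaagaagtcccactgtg
PNPase, chr3R:31404605-31404652: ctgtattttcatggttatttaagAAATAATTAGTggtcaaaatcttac
CenG1A, chr2L:13835361-13835560: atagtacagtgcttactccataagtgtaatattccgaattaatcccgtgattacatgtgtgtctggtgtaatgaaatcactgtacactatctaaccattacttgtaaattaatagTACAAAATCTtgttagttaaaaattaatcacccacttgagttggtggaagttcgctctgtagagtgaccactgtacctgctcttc
CG7601, chr3R:29736746-29736942: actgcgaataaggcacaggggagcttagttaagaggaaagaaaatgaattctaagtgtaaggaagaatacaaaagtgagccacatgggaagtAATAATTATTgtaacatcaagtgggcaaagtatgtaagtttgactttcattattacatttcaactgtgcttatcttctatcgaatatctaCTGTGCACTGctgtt

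CG14100 (FBgn0036889, 3L 19589072 to 19590524, minus strand) had the strongest peak of the optimal set, with a score of 4313. Its summit at 19590610 was intergenic and lay 86 bp upstream of the single annotated start of the gene. The peak ranked 2, 1, 4 and 1 in replicates 1 to 4, with replicate scores of 780, 1207, 928 and 1437. It was the highest of its list in replicates 2 and 4 and second in replicate 1. The peak spanned 471 bp, more than 96.1% of the optimal peaks.

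Ugalt (FBgn0024994, X 2701124 to 2703852, minus strand) followed at rank 3 with a score of 4040. The summit at 2703891 was intergenic and lay 39 bp upstream of one Ugalt start and 146 bp upstream of the other. Replicates 1 to 4 placed it at ranks 5, 3, 1 and 2, with scores of 713, 916, 1056 and 1384. It led the list of replicate 3, and no replicate placed it below rank 5. The peak was 478 bp wide, more than 96.5% of the optimal peaks.

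CG11050 (FBgn0031836, 2L 6611011 to 6617117, plus strand) ranked 4 with a score of 3868. Its summit at 6612707 lay in an intron, 1020 bp downstream of the nearest of its 3 starts, so it was the single one of the 7 summits not within 1 kb of a start. Replicate ranks were 3, 5, 2 and 5, at scores of 746, 895, 1042 and 1198. Here too every replicate placed the peak among its 5 strongest. The peak was 550 bp wide, above 98.3% of the optimal peaks.

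The larp gene (FBgn0261618, 3R 28318162 to 28336440, minus strand) has 6 annotated starts. Its peak ranked 7 with a score of 3381, and the summit at 28326594 lay in an intron of the longer transcripts. The same position is 330 bp upstream of a start of shorter transcripts and 353 bp upstream of a further one. Ranks in replicates 1 to 4 were 6, 7, 8 and 11, and scores were 710, 840, 832 and 993. Replicate 4 alone placed it outside the 10 strongest. At 591 bp it was the widest of the 7 peaks, wider than 98.9% of the optimal peaks.

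PNPase (FBgn0039846, 3R 31401560 to 31405452, minus strand) ranked 8 with a score of 3366. The summit at 31404654 fell in an exon and was equally far from a pair of PNPase starts, 86 bp upstream of one and 86 bp downstream of the other. Another PNPase start lay 798 bp away. The replicate ranks of 8, 9, 7 and 8 were the most even of the 7 genes, with scores of 664, 818, 837 and 1074. At 427 bp, wider than 55.8% of the optimal peaks, it was of middle width.

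CenG1A (FBgn0028509, 2L 13835564 to 13898712, plus strand) ranked 9 with a score of 3316. It is by far the longest of the 7 genes, at 63149 bp, and the summit at 13835461 was intergenic, 103 bp upstream of its first start. Replicates gave ranks of 7, 11, 9 and 7 and scores of 670, 770, 764 and 1113. Replicate 2 placed it just outside the 10 strongest. The peak spanned 453 bp, more than 95.1% of the optimal peaks.

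CG7601 (FBgn0027583, 3R 29735269 to 29736745, minus strand) ranked 10 with a score of 3232. The intergenic summit at 29736843 lay 98 bp upstream of its single start. The replicate ranks of 18, 4, 12 and 9 varied most among the 7, and the scores were 538, 902, 739 and 1070. Replicate 1 gave the lowest place of any of the 7 genes in any replicate, although it held the other 6 among its 10 strongest. Its own list was not a source of the optimal set, but the pooled list, which was, includes it. The peak was the narrowest of the 7, at 423 bp, and wider than 55.6% of the optimal peaks.

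The replicate lists placed these peaks near the top, and as the genes were chosen on a list made from the same reads, this is a description only. Each replicate held 6 of the 7 among its 10 strongest, and 4 of the 7 (CG14100, Ugalt, CG11050 and PNPase) were there in all 4. Of all 8282 optimal peaks, 10 can hold such a place, which is 0.121%. Mean replicate ranks were 2.00 ± 1.41 for CG14100, 2.75 ± 1.71 for Ugalt and 3.75 ± 1.50 for CG11050 (SD, n = 4). They were 8.00 ± 2.16 for larp, 8.00 ± 0.816 for PNPase, 8.50 ± 1.91 for CenG1A and 10.8 ± 5.85 for CG7601. CG14100, Ugalt and CG11050 each ranked above larp, PNPase and CenG1A in all 4 replicates, while CG11050 was above CG7601 in 3 of 4. Of the 21 pairs of genes, 11 stood in the same order in every replicate. Within the first 3, and within the last 4, neighbours in the order did not differ beyond their spread.

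**Figure D1:**
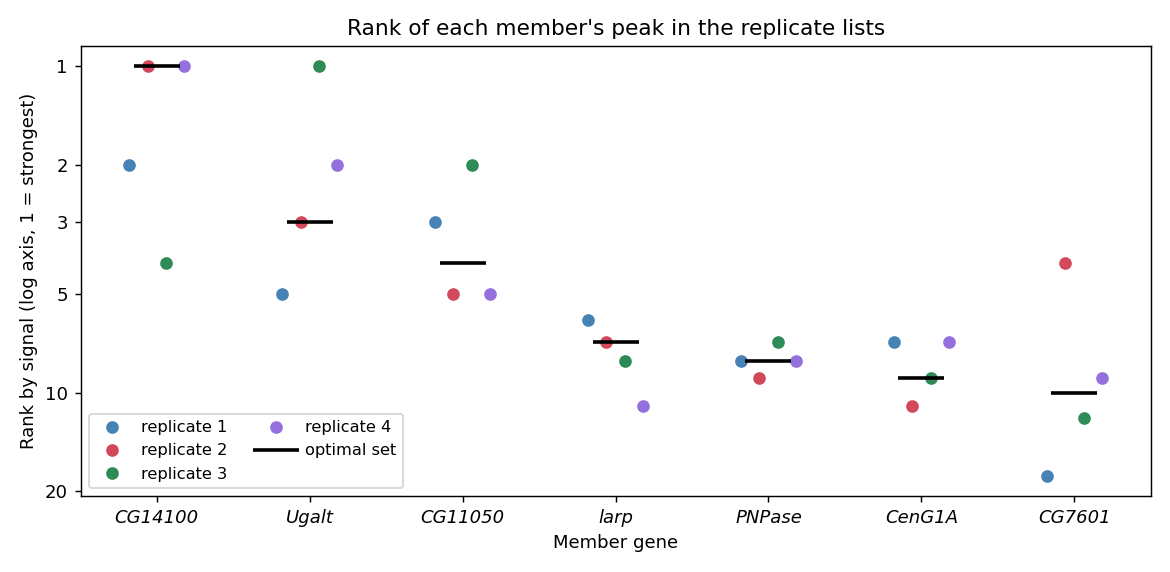
Rank by signal of each gene's peak (vertical log axis, 1 is strongest) in replicates 1 to 4 (coloured points) and in the optimal set (black bars). CG14100, Ugalt and CG11050 stay at rank 5 or better, and CG7601 spreads from 4 to 18.

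Position was not part of the choice, although the optimal summits were called on the same reads. Replicate summits lay within 10 bp of the optimal summit in 24 of 28 cases, and the largest distance was 23 bp. Over all optimal peaks that a replicate met, the median distance was 22.0 bp, and 51.9% of 27709 were within 23 bp. That limit was taken from the 7 genes, so all 28 cases meet it by construction, and no such share was computed at 10 bp. The 7 were chosen for strong peaks and stand here beside peaks of all strengths, so the contrast is no test. The Ugalt summits were the tightest, at −1, −6, −1 and −6 bp from the optimal summit in replicates 1 to 4 (mean −3.50 ± 2.89 bp, SD). CG14100 had offsets of 10, −1, 1 and 2 bp (3.00 ± 4.83), and CG7601 of −9, 0, 1 and −3 bp (−2.75 ± 4.50). At both genes replicate 1 was the one farthest away. CG11050 had offsets of 7, 8, −3 and −1 bp (2.75 ± 5.56), PNPase of 7, 2, 11 and −4 bp (4.00 ± 6.48) and CenG1A of 5, −8, 12 and 6 bp (3.75 ± 8.42). The larp summits were the most scattered, at 0, 13, 4 and −23 bp (−1.50 ± 15.3). In the replicates the 7 peaks were 344 to 480 bp wide, so all of these shifts were small beside the peaks.

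**Figure D2:**
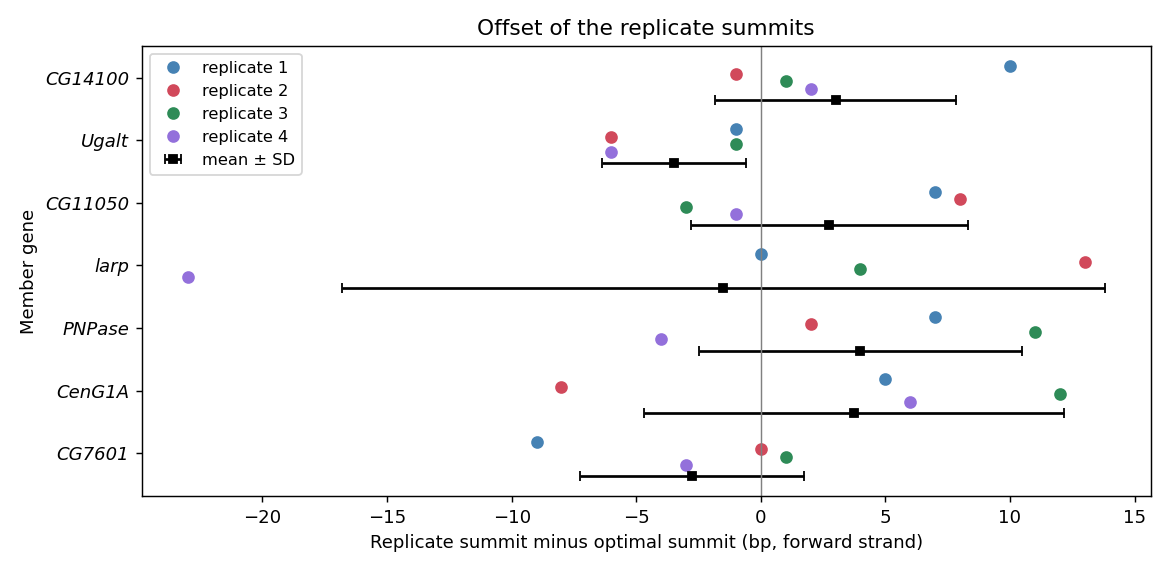
Distance of each replicate's summit from the optimal summit (horizontal axis, bp on the forward strand) for the 7 genes. Points are replicates, and squares with bars are mean ± SD (n = 4); all points but 4 lie within 10 bp of 0, and larp in replicate 4 is farthest at −23.

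The starts of protein-coding genes near the summits were listed next. A summit lay within 1 kb of a start of the gene itself for 6 of 7 genes, where 37.2% of all 8282 optimal summits were within 1 kb of a protein-coding start. It lay within 100 bp for 4 of them (CG14100, Ugalt, PNPase and CG7601), against 9.39% of optimal summits. Since each gene was chosen as the nearest to its peak, these counts describe the 7 and are no test.

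In 4 of 7 cases a divergent pair of starts, on opposite strands and reading apart, lay within 1 kb of the summit, against 9.41% of optimal summits. This count does not require the summit to lie between the starts. It does require a start within 1 kb, which 6 of the 7 summits and 37.2% of all optimal summits had. The contrast therefore restates in part how near the 7 lie to starts, and it is no test. The Ugalt summit was 680 bp from the start of eIF2Bbeta, which encodes a subunit of the exchange factor of translation initiation. The PNPase summit was 591 bp from the start of Gprk2, a kinase of G protein-coupled receptors. The outermost PNPase start, 798 bp from the summit, lay beyond that of Gprk2. The CenG1A summit was 389 bp from the start of mRpS23, a protein of the mitochondrial ribosome. Between CG7601 and CIA30, whose product assembles mitochondrial complex I, the summit sat nearly midway, 98 bp from the first and 122 bp from the second. The summits of Ugalt, PNPase and CenG1A lay nearer to a start of the named gene, at 39, 86 and 103 bp. Distance barely separates CG7601 from CIA30. Which gene of a pair a peak acts on was not tested, and distance alone does not show it. Of these 4 neighbouring starts, only that of CIA30 lay inside the interval of the strong peak. In the pooled list, eIF2Bbeta and Gprk2 had weak summits of their own, 5 and 27 bp from their starts (ranks 21225 and 23838). CG14100 and larp had no other protein-coding gene start within 1 kb.

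**Figure D3:**
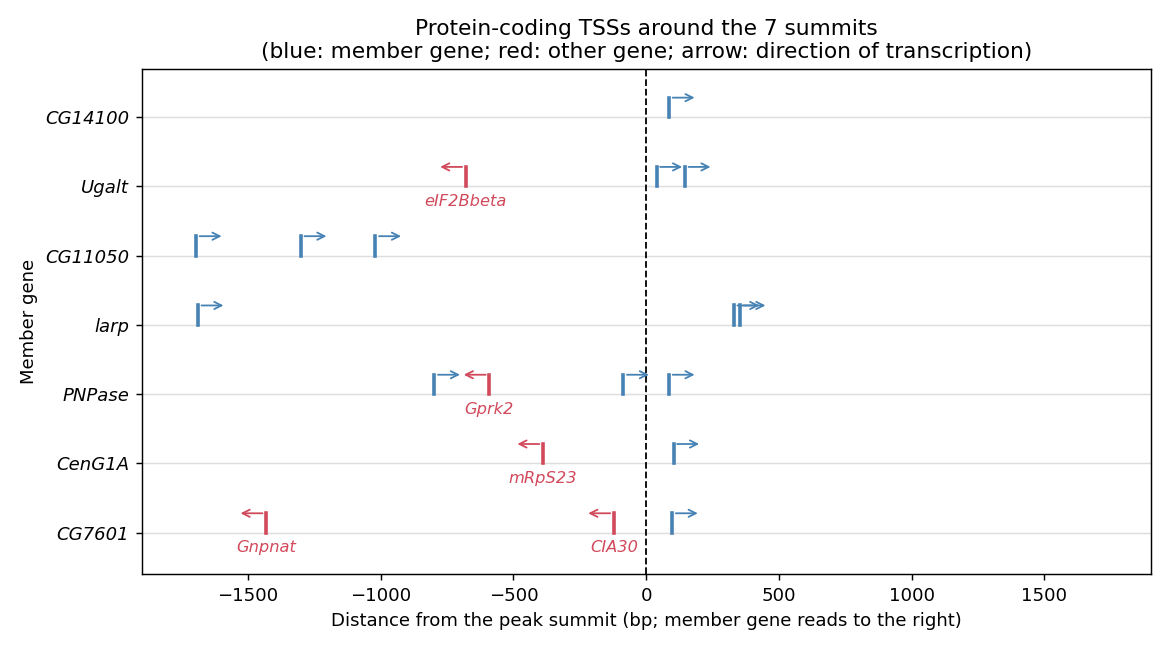
Annotated protein-coding starts around each summit (dashed line at 0; horizontal axis in bp, drawn so that the named gene reads to the right). Blue marks are starts of the gene itself and red marks those of other genes, with arrows for the direction of transcription; eIF2Bbeta, Gprk2, mRpS23 and CIA30 read away from the summit at 680, 591, 389 and 122 bp.

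Farther starts within 5 kb had weaker peaks or none. Near CG14100 the starts of CG9330 and CG9231, at 4357 and 4607 bp from its summit, had a peak of rank 6824 as their best within 1 kb. Gnpnat, an enzyme gene of the hexosamine pathway 1432 bp from the CG7601 summit, had a peak of rank 4031. CG2680 and CG2681 beside Ugalt had no optimal summit within 1 kb of a start. The same held beside CenG1A for Polr2C, a subunit gene of RNA polymerase II, and for PolG2 and GatC, which share a start and encode a mitochondrial DNA polymerase subunit and a tRNA amidotransferase subunit.

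The distance to the nearest other peak ranged widely. The next optimal summit was 18664 bp from that of Ugalt, a distance larger than that of 94.0% of optimal summits. It was 5048 bp away at PNPase, 4416 bp at CG14100 and 4411 bp at CenG1A, and 1875 bp at CG11050, 1265 bp at CG7601 and 808 bp at larp. The median over all optimal summits was 1957 bp, so 4 of the 7 were farther apart than that and 3 were closer. In the longer pooled list, which reaches down to weak peaks, the Ugalt summit had a neighbour at 675 bp and the PNPase summit one at 618 bp.

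Within the 7 genes and 5 kb to either side there were 22 optimal summits, 11 of them inside the genes. Ugalt had 1, CG14100, CG11050, PNPase and CG7601 had 2 each, CenG1A had 4 and larp had 9. Among all protein-coding genes 49.2% had at least 1 such summit, 27.3% at least 2, 7.97% at least 4 and 1.20% at least 9. The gene length adds to the window, and larp and CenG1A are the longest of the 7. The pooled list held 47 summits in the same windows, of which 17 were at CenG1A and 13 at larp. Replicates 1 to 4 held 20, 20, 18 and 23 when each was limited to its 8282 strongest peaks (mean 20.2 ± 2.06, SD). At larp these counts were 6, 7, 6 and 10, and at CenG1A 6, 5, 3 and 3. CG11050 and CG7601 had 2 in every replicate.

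Weaker summits were spread over larp and its upstream side. The next strongest after the main one, at 28335753 with a score of 344, lay 212 bp upstream of a larp start and ranked 1955, with replicate ranks of 3063, 1932, 3082 and 1340. A further one at 28328923, scoring 267, lay 640 bp upstream of another larp start and ranked 2780, with replicate ranks of 3632, 1767, 2841 and 3150. Both were among the 8282 strongest of every replicate. The summit at 28336567, which lay 127 bp upstream of the outermost larp start, ranked 6050 and was less even, at 12278, 4837, 17000 and 4281. Summits of ranks 4099, 7319 and 8055 lay inside the gene as well. The 2 summits farthest beyond it were nearest to Gfat2, an enzyme gene of the hexosamine pathway (rank 5296), and to Moca-cyp, a cyclophilin gene (rank 7560).

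CenG1A had the strongest secondary summit of the 7 genes. It lay inside the gene at 13839872, scored 649 and ranked 706. Replicates gave ranks of 523, 632, 818 and 889 (mean 716 ± 168, SD, n = 4), and no replicate placed it below rank 889. Its nearest start, at 1648 bp, belonged to CG33307 and not to CenG1A. A summit of rank 5695 at 13840094 shared the same interval. Another at 13884877, farther into the gene and 5920 bp from a CenG1A start, ranked 3617.

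The secondary peaks of the other genes lay on either side of the median optimal score of 193. CG11050 had one at 6610832, 179 bp upstream of its outermost start, with a score of 254 and rank 2964, and replicate ranks of 4956, 3964, 3547 and 2700. Thus the strong CG11050 peak was the intronic one, and the summit at the start of the gene scored far lower in the same list. The second summit near CG7601, at 29738108 and 167 bp upstream of Gnpnat, scored 197 and ranked 3000, 4519, 5490 and 6046 in the replicates. Near CG14100 a summit 59 bp upstream of CG9330 scored 122 and was not met in replicate 2. Near PNPase a summit at 31409702, 4250 bp upstream of the gene, scored 123.

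**Figure D4:**
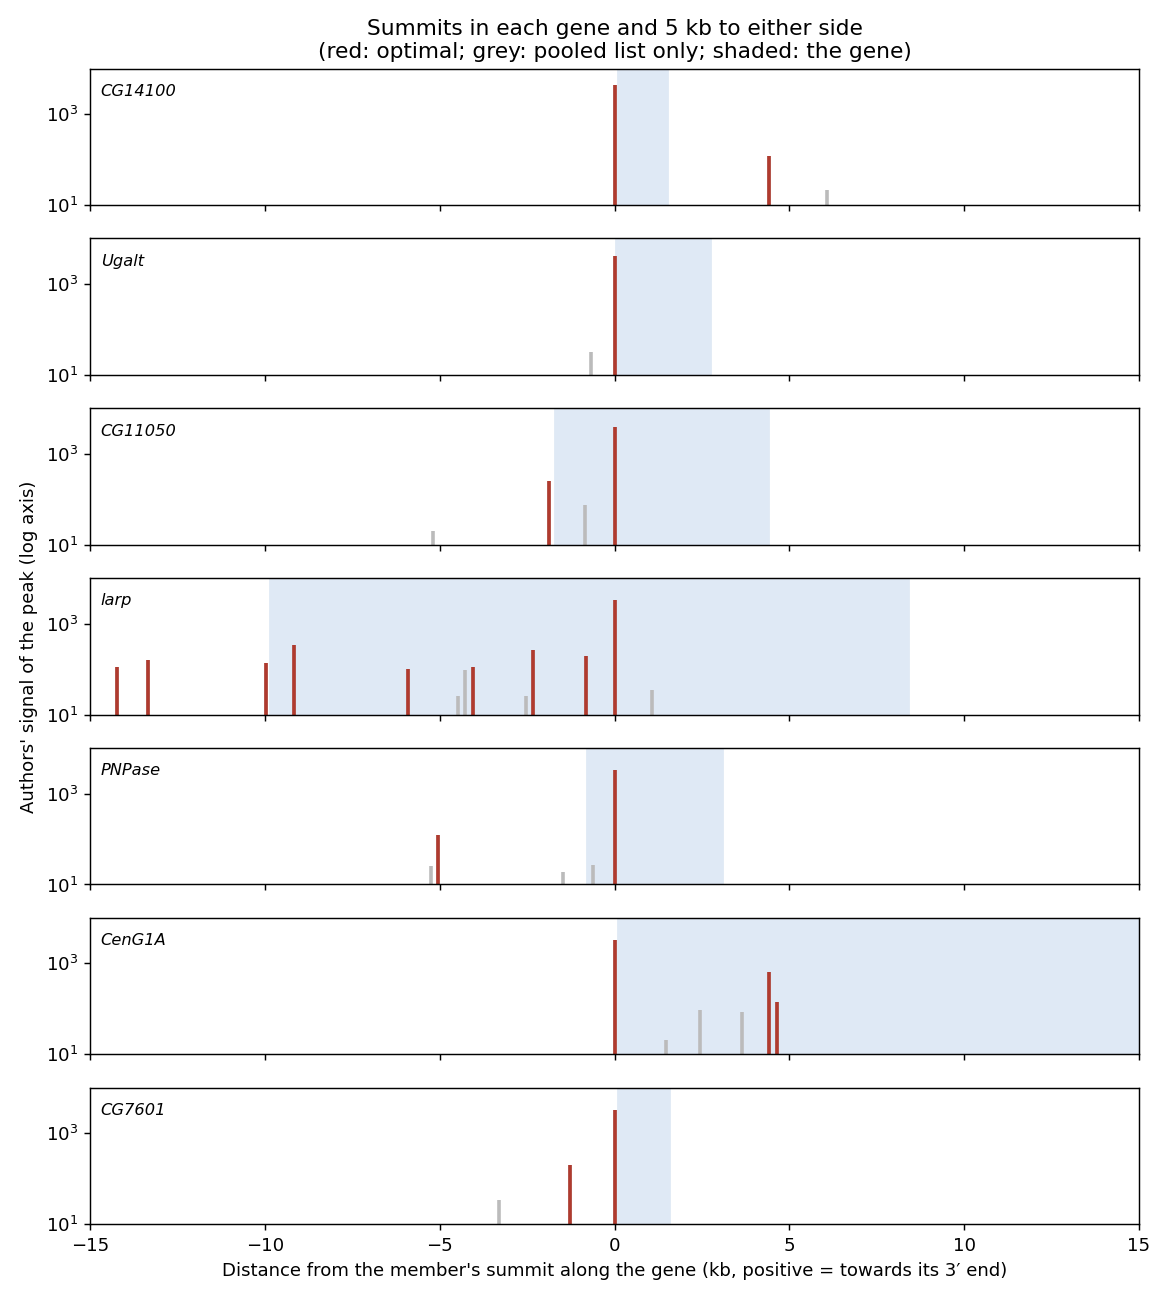
Optimal summits (red) and summits of the pooled list alone (grey) in each gene (shaded) and 5 kb to either side, by distance from the strong summit (horizontal axis, kb, positive towards the 3′ end of the gene) and by score (vertical log axis). The axis stops within CenG1A, so its summits farther into the gene are not drawn; larp carries 9 optimal summits and Ugalt 1.

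The windows of 200 bp around the 7 summits were then searched on both strands for 15 known motifs. The half-site AGGTCA and its form with a leading T, TAGGTCA, were in 0 of 7 windows, against 4.03% and 1.05% of all optimal windows and 3.24% and 0.617% of windows of the same length at 19276 protein-coding starts. The half-site GGGTCA was in 1 window, that of Ugalt, from −52 to −47 bp of the summit (3.01% of optimal windows and 3.33% of start windows). This match lies in bases annotated as UTR and is not in the printed sequence. A window with no match shows only that these letters are not in it.

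Among motifs common at promoters, the initiator letters TCAGT were in 4 windows, those of Ugalt, CG11050, larp and PNPase, where 36.9% of optimal windows and 43.3% of start windows held them. All 4 matches were on the forward strand, whereas Ugalt, larp and PNPase read on the minus strand. The CG11050 match lay by an intronic summit 1020 bp past the nearest start, so no match is placed as an initiator of its gene. TGANTCA, a loose form of the AP-1 site with any base at N, was in the CG14100 window from 25 to 31 bp. It was in 5.13% of optimal and 3.76% of start windows. The AP-1 site proper has C or G at N, and the CG14100 match read TGATTCA, so it is not placed as an AP-1 site. CACACA was in the CenG1A window (14.6% and 16.0%). The TATA box TATAAA was in 0 of 7 windows, although 35.1% of optimal windows and 26.8% of start windows held it, and GAGAG was in 0 of 7 against 22.8% and 24.9%.

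Other listed motifs were likewise in 0 of 7 windows. They were ATCGAT (6.29% of optimal and 16.4% of start windows) and TATCGATA (1.49% and 6.43%), which contains ATCGAT and so overlaps it, and the M1BP letters GGTCACAC (1.23% and 5.67%). The E-boxes CACGTG (1.67% and 2.79%) and CAGCTG (7.03% and 13.4%), the Zelda letters CAGGTAG (0.712% and 1.05%) and the heat shock letters TTCNNGAA (5.57% and 5.29%) were the rest.

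The windows shared a few longer runs with each other. CG14100 and Ugalt both held CTACGCCCATG on the forward strand, from 70 to 80 bp and from 72 to 82 bp after the summit, and 13 optimal windows (0.157%) held it. Both genes read on the minus strand, so the run lay upstream of the summit along each gene. In the CG14100 window 10 of these bases recurred inverted as CATGGGCGTA, from −79 to −70 bp, so that the summit lay between the copies. CG11050 and PNPase shared AAATAATTAGT, found in 10 optimal windows (0.121%). CG11050 also shared AGATTTTGTA with CenG1A and CAGTGCACAG with CG7601, each on opposite strands, and the second of these was in 36 optimal windows (0.435%). The CG7601 summit itself fell in AATAATTATT, which reads the same on both strands. Only the larp window shared no run of 10 bases with another of the 7. Each share above is that of a run picked after it was found. How often other sets of 7 optimal windows share any run of 10 bases was not computed, so this sharing is a description only.

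In base composition the windows were ordinary but for one. The GC content was 36.5% at CG14100 and larp, 35.0% at CG11050, 38.0% at PNPase, 36.0% at CenG1A and 35.5% at CG7601, beside a median of 34.5% and quartiles of 30.5% and 39.0% over all optimal windows. Ugalt, at 46.0%, was above 91.6% of them.

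Genes with related roles were looked up next. These had to rank lower, since the chosen genes held 7 of the 10 strongest peaks and none of the remaining 3 was nearest to a related gene. The strongest peak at the start of a related gene was at SLIRP2. A summit within 1 kb of a start was present for 22.0% of all protein-coding genes, and the counts that follow include the chosen gene itself. Among 8 genes for Golgi sugar-nucleotide transporters and related carriers, 3 had a summit (37.5%), and each replicate gave the same share. These were Ugalt at rank 3, frc, a transporter gene of several UDP-sugars, at 224, and senju at 1289. The frc peak ranked 353, 220, 196 and 231 in the replicates. Efr, nac, sll, Papst2 and meigo had none.

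Of 10 genes for mitochondrial RNA maintenance, 3 had a summit (30.0%; replicate mean 37.5 ± 9.57%, SD). These were PNPase at rank 8 and both SLIRP genes, whose products bind RNA, with SLIRP2 at rank 67 and SLIRP1 at 1156. SLIRP2 was at ranks 65, 69, 62 and 73 in the replicates, close to the top of each list. Suv3, the helicase partner of PNPase in RNA decay, had no optimal summit but was met in replicates 1 and 4. PolrMT, TFAM, bsf, mtDNA-helicase, mTTF and mTerf3 had none in the optimal set.

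Of 10 genes for La-related proteins and regulators of cap-dependent translation and of messenger RNAs with a terminal oligopyrimidine start, 6 had a summit (60.0%; replicate mean 52.5 ± 9.57%, SD). After larp at rank 7 came pAbp, the poly(A)-binding protein gene, at 420, and Thor, the 4E-BP gene, at 3886. Then followed raptor at 4374, La at 6041 and S6k at 8003. The S6k summit was not found at the promoter in the strongest peaks of any replicate, and that of La in 2. Larp4B, Larp7, mTor and eIF4E1 had none in the optimal set.

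Of 7 genes for Arf GTPase-activating proteins, 2 had a summit (28.6%; replicate mean 42.9 ± 11.7%, SD), CenG1A at rank 9 and CenB1A at 5043. ArfGAP3 had none in the optimal set but had one in all 4 replicates, at ranks 7310, 3005, 3621 and 2677. ArfGAP1, Asap, drongo and Git had none in the optimal set, although drongo held 6 optimal summits inside the gene. With 7 to 10 genes a list, these shares are descriptions and show nothing particular to any list.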

How the data were processed

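ChIP-seq peak lists on dm6 from 4 biological replicates were used, with the pooled and the optimal list. Replicate numbers are those of the labels, and nothing pairs samples. Per the file headers and README texts deposited with the samples, each replicate list was called by the authors against a control alignment, and the optimal set was thresholded by irreproducible discovery rate from the lists of replicates 2, 3 and 4 and the pooled list. The caller, aligner and thresholds are not stated there or in the labels. The deposited signal score has no stated scale and was used only to rank peaks within a list. The authors' −log10 q-value column was not used to rank. All 8282 optimal peaks equalled the strongest pooled peaks. Lists on dm3 were not used.

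Positions are 1-based. A replicate's value is its highest-scoring peak that overlaps the optimal peak by at least 1 bp. Genes came from Ensembl release 115 and sequence from RefSeq Release 6, the same assembly as dm6. Work was done in Python 3.11.15 with pandas 2.3.3, numpy 2.4.6 and matplotlib 3.10.9, and the search and overlap steps were tested on simulated data. The members, the 4 lists of related genes and the 15 motifs were chosen with earlier results of these data known, and shared runs were looked for after values were seen, so no test was run. Named genes are the 7 members, every gene with a protein-coding start within 5 kb of a member summit, the genes nearest to the other 3 of the 10 strongest peaks and to rank 11, and the related lists. Genes nearest to secondary summits, such as Gfat2, Moca-cyp and CG33307, were named after their values were seen. Alternatives changed the replicates used, overlap rule, window, peak threshold, list and start set.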

Additional observations from a re-analysis of the deposited data

Results flagged for a closer look

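Of 21 groups of 4 replicate values examined, 1 had a sample apart from the others. The number of summits in CG14100 and 5 kb to either side, among the 8282 strongest peaks of each replicate, was 1 in replicate 2 and 2 in each of the others. The rule used singles out about 1 in 20 groups by chance where values are continuous, and with small tied counts such as these any single different value stands apart. The missing summit is the one upstream of CG9330, and the strong CG14100 peak itself was first in that replicate.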

How the results depend on the processing

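Of 222 values recomputed under an alternative, 208 stayed within the spread or within 1.5 times, and 14 moved. All 42 ranks and 35 summit offsets were among those that stayed. This says little, because leaving out a replicate cannot move a mean of 4 values by more than their SD. The other overlap rules gave the same ranks as reported. Offsets were recomputed only with the nearest replicate summit, which gave the same values. With the 4141 strongest optimal peaks alone, the 22 summits in and around the genes became 14, and the 9 at larp became 4. Their mean over sets of 3 replicates ran from 19.3 to 21. With a limit of 500 bp the divergent pairs fell from 4 to 2. In windows of 100 bp GGGTCA was in 0 in place of 1 and TCAGT in 2 in place of 4. In windows of 300 bp CAGCTG was in 1 in place of 0 and CACACA in 2 in place of 1. For Arf GTPase-activating proteins the mean count over sets of 3 replicates ran from 2.67 to 3.33, where the optimal set gave 2. The cause of these changes was not tested. Depth is unknown, so no limit of detection can be given. No paired analysis was possible because all samples form 1 group.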

Other observations

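A peak among the 8282 strongest of 2 replicates had no counterpart in the pooled list. It lay near Ugalt on the X at 2708345 in replicate 3 and at 2708346 in replicate 4, 339 and 338 bp upstream of CG2681, with ranks of 3209 and 2712. The full list of replicate 1 held a weaker summit there, at 2708328 and rank 12946. Of the 8282 strongest peaks of replicates 3 and 4, 6.31% and 7.69% had no pooled peak. Replicate 1 had one such peak inside CenG1A at 13893708, at rank 4106, where 6.81% of its strongest peaks had no pooled peak.

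The letters CTACGCC, taken from the run that CG14100 and Ugalt share after it was seen, were in 2 of the 10 strongest windows, 8 of the strongest 50 (16.0%), 13 of the strongest 100 and 90 of all 8282 (1.09%). They were in 0.996% of windows at protein-coding starts. The windows that supplied the letters are among those counted, and no test was run.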
